A study of Drosophila melanogaster with 12 samples.

Results

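The cytochrome P450 genes of the fly head are described here, in 12 RNA-seq libraries of Drosophila melanogaster. Members were the genes whose current FlyBase symbol begins with Cyp and a digit, taking for each gene the transcript row whose mean was highest. Of 13759 genes in the deposited table, 83 symbols met this rule. Cyp1 and Cyp40 are among them but encode cyclophilins, which are protein-folding enzymes, and these 2 genes were set aside, which left 81 P450 genes. A mean of 10 or more normalized reads over the 12 libraries was reached by 45 P450 genes, and these were tested among 6552 such genes of the whole table. The other 36 lay below it, and 5 of those had no read in any library. Just inside that limit lay Cyp309a2, Cyp4p3 and Cyp12a5, with means of 10.4, 12.9 and 13.0. Just outside it lay Cyp12d1-p, Cyp4ac3 and Cyp4d1, with means of 9.87, 9.85 and 9.53.

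All flies had a Canton-S strain background and were sampled after 18 h on 0, 25, 50 or 100 percent sucrose, as the labels give the percentages. The 8 libraries labelled cabut RNAi, 2 at each concentration, came from heads of flies with Tim-gal4 and UAS-cbt RNAi. Tim-gal4 drives transgenes in cells that express the clock gene timeless, so the RNAi is not aimed at every cell of a head. The 4 control libraries, 1 at each concentration, carry the genotype label +/cbtE1-UAS-cbt RNAi, which names the RNAi transgene and no driver. Both groups thus carried a UAS transgene, and driver and chromosome background cannot be told apart from the RNAi itself. The unit, called normalized reads, is the read number divided by a factor for the library. Reads come from 3' ends, and levels are compared within a gene and not between genes. The labels do not say whether libraries of a group come from separate cultures of flies. P-values therefore refer to the spread among the libraries as sequenced, which can be technical.

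Cytochrome P450 enzymes are haem proteins that insert oxygen into lipids, steroids and foreign compounds. The electrons reach microsomal P450s through the reductase Cpr, and mitochondrial P450s through ferredoxins. Insect P450s fall into clans by family. The CYP3 clan holds many genes known for breaking down insecticides and plant toxins, the CYP4 clan acts largely on fatty acids and hydrocarbons, and CYP2 and mitochondrial clan members include enzymes of ecdysteroid synthesis and breakdown. Several families sit in tandem arrays of close copies, and members of such arrays can respond to the same compound.

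The 81 genes comprised 36 of the CYP3 clan, 32 of the CYP4 clan, 9 of the mitochondrial clan and 4 of the CYP2 clan. Tested members numbered 24, 14, 5 and 2 in the same order of clans. Chromosome arm 2R carried 34 of the 81 genes and 21 of the 45 tested. Genes whose neighbouring starts lay within 20 kb formed 15 clusters with 44 members, 22 of them tested. The largest cluster spanned 29.4 kb on 2R (10759197 to 10788556, build dm3) and held 9 genes, in chromosome order Cyp6a22, Cyp6a17, Cyp6a23, Cyp6a19, Cyp6a9, Cyp6a20, Cyp6a21, Cyp6a8 and Cyp317a1.

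Libraries held 511487 to 1859280 reads, the shallowest being the control at 100 percent sucrose. The targeted gene cbt was not lower in the cabut RNAi-labelled libraries, at 151 ± 33.6 normalized reads there and 115 ± 22.2 in the controls (SD, n = 8 and 4), with a limma adjusted p of 0.0539. The control library at 100 percent sucrose stood apart in genes of other tissues. FASN2, FASN3, CG17560, CG17562 and eloF, marker genes of oenocytes, had 15.7, 13.4, 11.2, 4.48 and 11.2 normalized reads in it, each from 7 reads or fewer, and at most 3.55 in any of the other 11 libraries. Uro, the urate oxidase of the Malpighian tubule, had 17.9 there and no read in the other 11. The gut protease gene Jon25Bi had no read in any library, and spidey, the sixth oenocyte gene of the list, had 150 in this control and 138 to 186 in the others. Calls between labels that were lost without this library are given with and without it. Photoreceptor genes such as ninaE and glial genes such as repo were read in every library, while 0 of 5 antennal genes reached a mean of 10. The summed antennal list was 10.8 to 33.3 normalized reads under the cabut RNAi label and 2.24 to 34.4 in the controls.

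P450 genes differed between the labels in both directions, with as many higher as lower. Of 45 tested, 9 were higher in the cabut RNAi-labelled libraries, against 6.78 percent of all tested genes, and 9 were lower, against 8.71 percent. In both directions together, 18 of 45 (40.0 percent) passed a limma adjusted p of 0.05, against 15.5 percent of all genes. The median log2 fold change was 0.03 over the 45 and 0.01 over all genes, while its median size without sign was 0.44 over the 45 and 0.20 over all genes. In 9 members every library labelled cabut RNAi lay above every control, against 3.14 percent of all genes, and in 7 every such library lay below every control, against 5.02 percent. Leaving out the 100 percent control, 9 members were higher and 7 lower, and the share of all genes called was 11.0 percent. Among the lower members, Cyp6a17, Cyp309a2 and Cyp4g1 met the mean of 10 only through the controls. Their means under the cabut RNAi label were 4.25, 7.89 and 5.05. Cyp6d2 did so too, its highest value under that label being 9.77. The place of these genes among the tested ones thus depends on the group where they were high.

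Most calls fell in the CYP3 clan and on 2R. The CYP3 clan had 7 higher and 8 lower of 24, and the CYP4 clan 2 higher and 1 lower of 14. In the CYP2 clan 0 of 2 and in the mitochondrial clan 0 of 5 were called by limma, with 1 and 2 genes at an unadjusted p under 0.05, and 0 in each by edgeR and DESeq2. On 2R, 13 of 21 members were called, against 19.6 percent of all tested genes there, and on the other chromosomes 5 of 24, against 14.4 percent. Leaving out the 100 percent control, 12 of 21 were called on 2R, against 15.3 percent, and 4 of 24 elsewhere, against 9.93 percent. The CYP3 clan then had 7 higher and 7 lower, and the CYP4 clan 2 higher and 0 lower. Inside clusters 10 of 22 were called, and outside them 8 of 23, against 15.5 percent of all genes. The largest cluster alone supplied 7 of the calls inside clusters, and the others were Cyp309a1, Cyp309a2 and Cyp4p1. Those 7 also count among the calls on 2R and in the CYP3 clan, so these shares rest in large part on 1 array. These shares are counts over genes, and the differences between clans and between arms were not tested.

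**Figure D1:**
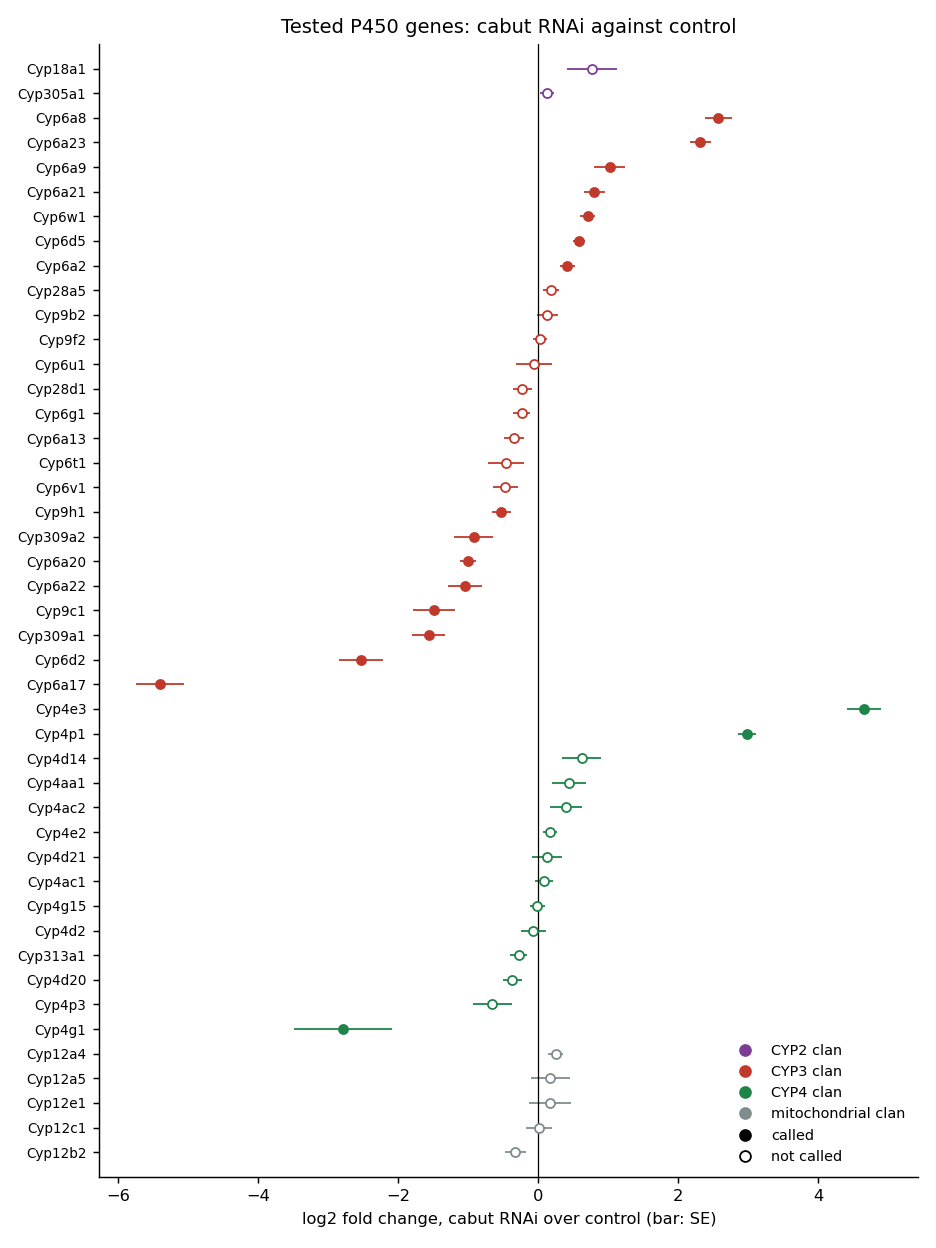
Log2 fold change of the 45 tested P450 genes, cabut RNAi over control (x axis, bars are standard errors), with genes down the page grouped by clan and filled points for genes past the limma adjusted p of 0.05. The CYP3 clan holds 15 of the 18 filled points, from -5.40 for Cyp6a17 to 2.57 for Cyp6a8.

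The largest cluster held changes of both signs among next neighbours. All 7 of its tested genes were called, and under the cabut RNAi label 4 were higher and 3 lower. In chromosome order the log2 fold changes were -1.05 for Cyp6a22, -5.40 for Cyp6a17, 2.32 for Cyp6a23, 1.02 for Cyp6a9, -1.01 for Cyp6a20, 0.80 for Cyp6a21 and 2.57 for Cyp6a8. The sign thus turned 3 times along the array. The untested members were Cyp6a19, with 0 reads in the 8 cabut RNAi-labelled libraries and 4 reads in the 4 controls, and Cyp317a1, with 36 and 7 reads. Apart from Cyp317a1 these genes belong to the Cyp6a subfamily, and reads shared between copies could have been split between them by the authors' alignment, which was not measured.

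**Figure D2:**
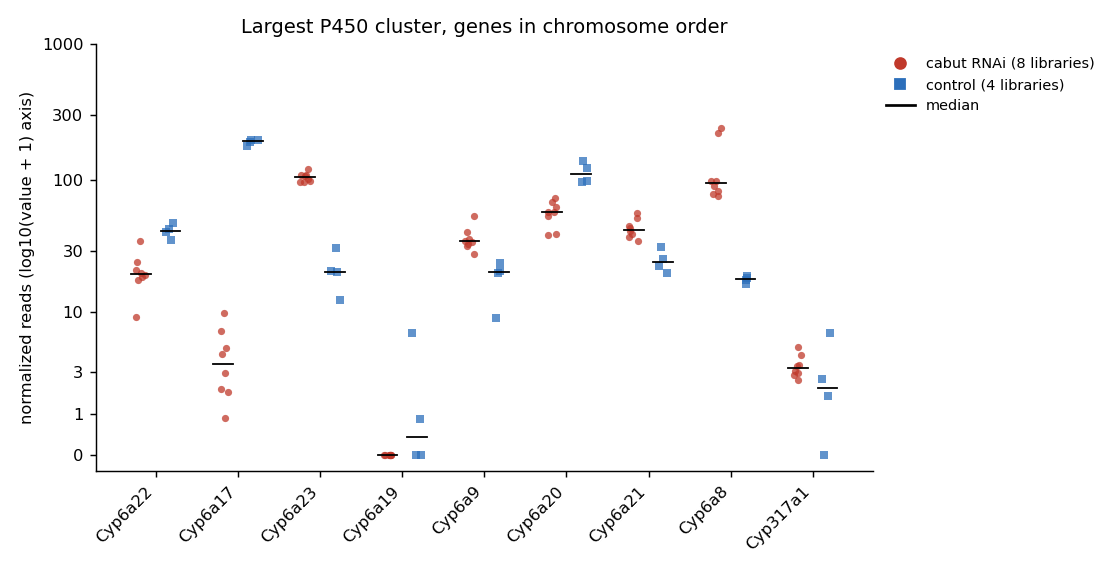
Normalized reads (y axis, log10(value + 1) scale) of the 9 genes of the largest P450 cluster, from left to right in chromosome order, with 1 point per library, cabut RNAi left of control and the median as a bar. Cyp6a17 and Cyp6a23, next to each other, have opposite differences, and neither pair of groups overlaps.

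Cyp6a17, which is known for its part in temperature preference behaviour in the fly brain, had the largest fall of all P450 genes tested. The gene lies on 2R at 10761477 to 10763064. The cabut RNAi-labelled libraries had 0.876 (lowest), 3.70 (median) and 9.80 (highest) normalized reads, against 178, 198, 191 and 199 in the controls at 0, 25, 50 and 100 percent sucrose. All 8 libraries were far below all 4 controls, at every concentration. Its log2 fold change was -5.40 ± 0.34 (SE; limma adjusted p 1.15e-09) and lay between -5.69 and -5.17 whichever library was left out.

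Its neighbour Cyp6a23, at 10763338 to 10765159, went the other way. It had 97.2 (lowest), 105 (median) and 122 (highest) normalized reads in the cabut RNAi-labelled libraries, against 20.5, 12.6, 21.1 and 31.3 in the controls from 0 to 100 percent sucrose. The 8 values were tightly grouped and the labels did not overlap. Its log2 fold change was 2.32 ± 0.15, with a limma adjusted p of 2.47e-09.

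Cyp6a8, a gene induced by caffeine and barbiturates and overexpressed in insecticide-resistant strains, lies at 10774673 to 10776514. It had 77.0 (lowest), 95.0 (median) and 242 (highest) normalized reads in the cabut RNAi-labelled libraries, against 16.6, 19.3, 18.6 and 17.9 in the controls from 0 to 100 percent sucrose. The labels did not overlap, and the 2 highest values were those of the libraries without sucrose. The log2 fold change between labels was 2.57 ± 0.19, with a limma adjusted p of 1.75e-08.

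The other called genes of the array moved by smaller amounts. Cyp6a9 had 28.4 (lowest), 35.3 (median) and 54.3 (highest) normalized reads in the cabut RNAi-labelled libraries, against 24.3, 20.1, 21.1 and 8.95 in the controls from 0 to 100 percent sucrose. The labels did not overlap, but the gap was narrow and the lowest control was the library at 100 percent sucrose. Fitted over all concentrations, the log2 fold change was 1.02 ± 0.23 (limma adjusted p 0.00328), and 0.60 without that library (adjusted p 0.0346). The annotated spans of Cyp6a9 and Cyp6a19 overlap, so their reads could not be told apart without strand.

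Cyp6a21 had 35.6 (lowest), 43.2 (median) and 57.7 (highest) normalized reads in the cabut RNAi-labelled libraries, against 23.1, 31.9, 26.0 and 20.1 in the controls from 0 to 100 percent sucrose. All 8 lay above all 4, with a log2 fold change of 0.80 ± 0.15 (limma adjusted p 8.29e-04). Cyp6a20, a gene known to modulate aggression between males, had 57.3 ± 12.5 normalized reads in the cabut RNAi-labelled libraries and 115 ± 20.02 in the controls (SD, n = 8 and 4), with a log2 fold change of -1.01 ± 0.12 (limma adjusted p 4.9e-06). Its groups did not overlap either.

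Cyp6a22, the first gene of the array, had 9.24 (lowest), 19.8 (median) and 35.5 (highest) normalized reads in the cabut RNAi-labelled libraries, against 48.7, 41.1, 43.4 and 35.8 in the controls from 0 to 100 percent sucrose. The highest value under cabut RNAi lay just under the lowest control. The fitted log2 fold change was -1.05 ± 0.24, with a limma adjusted p of 0.00458.

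Other CYP3 genes outside this array were called too. Cyp6w1, Cyp6d5 and Cyp6a2, known from responses to insecticides and other foreign compounds, were higher, and Cyp6d2, Cyp9c1, Cyp9h1 and the pair Cyp309a1 and Cyp309a2 were lower. The 9 CYP3 members not called were Cyp28a5, Cyp9b2, Cyp9f2, Cyp6u1, Cyp28d1, Cyp6g1, Cyp6a13, Cyp6t1 and Cyp6v1, with log2 fold changes from -0.47 to 0.18.

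Cyp6w1 had 338 (lowest), 399 (median) and 659 (highest) normalized reads in the cabut RNAi-labelled libraries, against 272, 258, 230 and 286 in the controls from 0 to 100 percent sucrose. The labels did not overlap, and its 2 highest libraries were again those without sucrose. On the log2 scale the difference was 0.71 ± 0.11, with a limma adjusted p of 7.76e-05.

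Cyp6d5 had 588 (lowest), 691 (median) and 767 (highest) normalized reads in the cabut RNAi-labelled libraries, against 458, 399, 435 and 521 in the controls from 0 to 100 percent sucrose. All 8 lay above all 4, with a log2 fold change of 0.58 ± 0.09 (limma adjusted p 1.15e-04). Cyp6a2, linked to DDT resistance, was higher by less, with 227 ± 51.4 normalized reads in the cabut RNAi-labelled libraries and 168 ± 22.8 in the controls (SD, n = 8 and 4). Its log2 fold change was 0.41 ± 0.11 (limma adjusted p 0.0115), and it missed the threshold without the control library at 0 percent sucrose (0.27, adjusted p 0.106) and without that at 25 percent.

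Cyp6d2, known for tolerance to the plant alkaloid camptothecin, lies on 2R at 18540078 to 18542032. It had 1.03 (lowest), 6.35 (median) and 9.77 (highest) normalized reads in the cabut RNAi-labelled libraries, against 35.9, 45.3, 35.9 and 33.6 in the controls from 0 to 100 percent sucrose. The labels were well apart. Its fitted difference on the log2 scale was -2.53 ± 0.31, with a limma adjusted p of 8.67e-06.

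The neighbours Cyp309a1 and Cyp309a2 form a cluster of their own on 2L (2562905 to 2573047). Cyp309a1 had 5.49 (lowest), 11.8 (median) and 24.2 (highest) normalized reads in the cabut RNAi-labelled libraries, against 48.7, 32.7, 35.9 and 29.1 in the controls from 0 to 100 percent sucrose. Cyp309a2 had 4.19 (lowest), 8.23 (median) and 11.4 (highest) in the cabut RNAi-labelled libraries, against 15.4, 18.5, 14.9 and 13.4 in the controls. Both genes were lower in all 8 libraries than in all 4 controls, unlike the mixed signs of the array on 2R. The log2 fold changes were -1.57 ± 0.24 (limma adjusted p 8.70e-05) and -0.92 ± 0.28 (adjusted p 0.0286). The second missed the threshold in 5 of the 12 leave-out fits, where its adjusted p reached 0.108, and with DESeq2 (adjusted p 0.0606).

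Cyp9c1 had 2.63 (lowest), 12.1 (median) and 16.8 (highest) normalized reads in the cabut RNAi-labelled libraries, against 32.0, 19.3, 33.4 and 33.6 in the controls from 0 to 100 percent sucrose. The groups did not overlap, the closest control being that at 25 percent. Its log2 fold change was -1.49 ± 0.30, with a limma adjusted p of 0.00165. Cyp9h1 had 36.4 ± 5.80 in the cabut RNAi-labelled libraries and 53.2 ± 11.6 in the controls (SD, n = 8 and 4), and the groups overlapped. Its log2 fold change was -0.53 ± 0.14 (limma adjusted p 0.0132), and the call was lost without the control at 100 percent (-0.47, adjusted p 0.0772) and without that at 50 percent. The call was also lost with DESeq2 (adjusted p 0.0744).

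**Figure D3:**
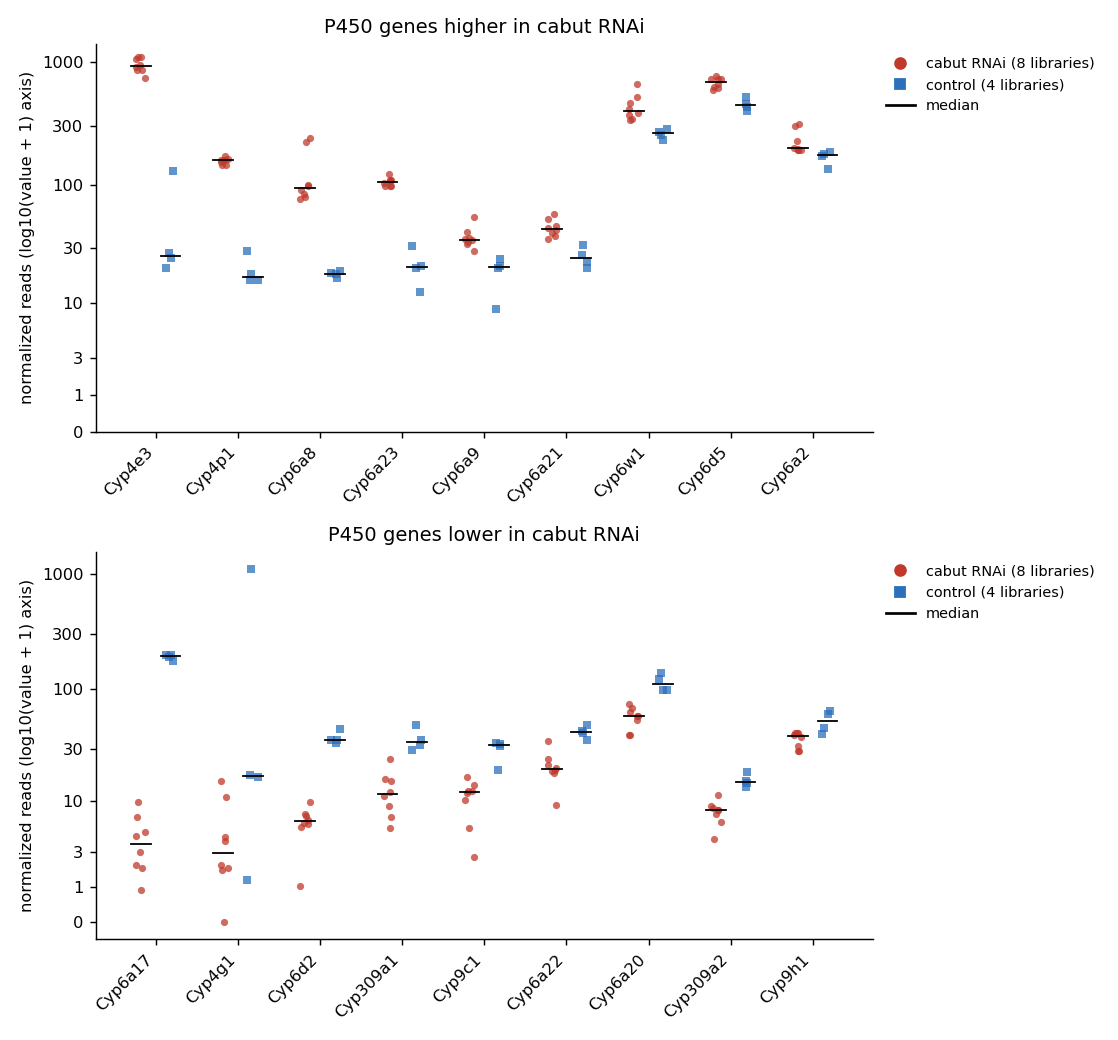
Normalized reads (y axis, log10(value + 1) scale) of the 18 P450 genes called between labels, the 9 higher above and the 9 lower below, with 1 point per library, cabut RNAi left of control and the median as a bar. Groups do not overlap for any of the 9 higher genes, and they overlap for Cyp4g1 and Cyp9h1 among the lower ones.

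In the CYP4 clan 3 of 14 genes were called. Cyp4e3, which in flies is known for a role in tolerance to the insecticide permethrin, lies on 2L at 9748012 to 9750020. It had 746 (lowest), 938 (median) and 1109 (highest) normalized reads in the cabut RNAi-labelled libraries, against 131, 20.1, 27.3 and 24.6 in the controls from 0 to 100 percent sucrose. The labels were far apart at every concentration, and the control without sucrose was the highest of the 4. Fitted over all concentrations, the log2 fold change was 4.65 ± 0.24, a fitted fold of 25.1, with a limma adjusted p of 9.41e-11, and 5.22 without the control at 0 percent sucrose.

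Cyp4p1 lies on 2R at 5127548 to 5129642, between Cyp4p2 and Cyp4p3 and within the annotated span of hig, so reads of hig and of this gene could not be told apart without strand. It had 145 (lowest), 159 (median) and 173 (highest) normalized reads in the cabut RNAi-labelled libraries, against 28.2, 15.9, 16.1 and 17.9 in the controls from 0 to 100 percent sucrose. The 8 values lay within a narrow range above all 4 controls. The fitted log2 fold change was 2.98 ± 0.13, with a limma adjusted p of 8.33e-12, while hig itself had 183 ± 17.8 normalized reads in the cabut RNAi-labelled libraries and 145 ± 15.7 in the controls (SD, n = 8 and 4). The neighbouring Cyp4p3 had 10.6 ± 3.59 in the cabut RNAi-labelled libraries and 17.5 ± 6.05 in the controls, with a log2 fold change of -0.66 ± 0.28 that did not pass (limma adjusted p 0.131).

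Cyp4g1, the oenocyte enzyme that completes the synthesis of cuticular hydrocarbons, was the third, and its call rested on 1 library. The cabut RNAi-labelled libraries had 0 (lowest), 3.0 (median) and 15.3 (highest) normalized reads, against 1.28, 16.8, 17.3 and 1101 in the controls from 0 to 100 percent sucrose. The control at 100 percent stood alone with 492 reads, and the other 3 controls overlapped the cabut RNAi-labelled libraries. Only through this library did Cyp4g1 reach the mean of 10. On the log2 scale the difference was -2.79 ± 0.70 (limma adjusted p 0.00861), and -1.43 without that control, with an adjusted p of 0.0760. In the same library 5 of 6 oenocyte genes had their highest values of all 12. So did 2 of 5 genes of gut and Malpighian tubule, Uro with 8 reads and LManV with 1 read. The summed oenocyte list, most of it spidey, was 139 to 193 normalized reads under the cabut RNAi label, 206 in this control and 139 to 188 in the controls at 25 and 50 percent. The summed gut and tubule list, most of it salt, was 51.6 to 76.0 under the cabut RNAi label and 87.3 in this control. It was 62.8 in the control at 0 percent and 59.5 to 98.2 in those at 25 and 50 percent, so another control lay higher. The part of those cells in the Cyp4g1 value was not tested. In a bulk sample, more cells of a type and more RNA per cell cannot be told apart.

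**Figure D4:**
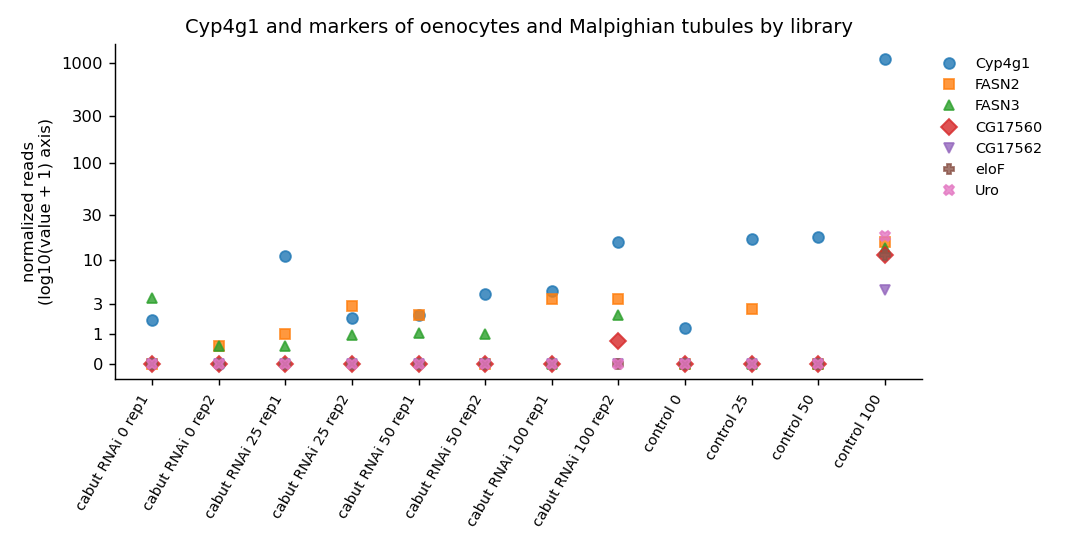
Normalized reads (y axis, log10(value + 1) scale) of Cyp4g1, 5 oenocyte marker genes and the Malpighian tubule gene Uro in each of the 12 libraries (x axis, labels with their sucrose percentage). The control library at 100 percent sucrose is highest for all 7 genes, with 1101 normalized reads of Cyp4g1 and 8 reads or fewer of each other gene. These genes are a choice from 2 lists. Not shown are spidey and salt, which were higher in other libraries, Jon25Bi and Vha16-5, with no read in this library, and LManV, with 1 read in it.

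The 27 P450 genes not called between labels had log2 fold changes from -0.66 to 0.77, with the smallest limma adjusted p at 0.0822. Cyp305a1 of the CYP2 clan had 108 ± 12.4 normalized reads in the cabut RNAi-labelled libraries and 99.9 ± 16.5 in the controls (SD, n = 8 and 4). Its reads equalled those of Kap-alpha1 in every library, so it is uncertain which gene they came from. Cyp12a4, the mitochondrial gene linked to lufenuron resistance, had 214 ± 24.5 in the cabut RNAi-labelled libraries and 181 ± 28.1 in the controls, with a log2 fold change of 0.25 ± 0.11 (limma adjusted p 0.156). Cyp18a1, which inactivates ecdysteroids, had the highest uncalled value, 0.77 ± 0.36, with 2.24 normalized reads in the control at 100 percent sucrose and 13.6 to 25.6 in the other 3 controls. Without that control the log2 fold change of Cyp18a1 was 0.03 (limma adjusted p 0.956).

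Summed over all members, P450 genes made up between 0.492 and 0.640 percent of reads under the cabut RNAi label and between 0.324 and 0.467 percent in the controls. The highest control share was that of the library at 100 percent sucrose, which includes the Cyp4g1 reads. In normalized reads the sums over all members were 4703 to 6033 in the cabut RNAi-labelled libraries and 3622 to 5342 in the controls. These ranges overlapped through the control at 100 percent sucrose, at 5342, the other controls being 3622 to 3974. Without Cyp4e3 and Cyp4g1, the summed normalized reads were 3831 to 4934 in the cabut RNAi-labelled libraries and 3585 to 4216 in the controls, and these ranges overlapped too.

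Partner and regulator genes were read from lists beside the P450s. Of 5 redox partners, 2 were higher and 1 was lower between labels, against 6.78 and 8.71 percent of all tested genes. The list median log2 fold change was -0.26 against 0.01 over all genes. Cyt-b5, the cytochrome that passes electrons to some microsomal P450s, had 574 ± 63.8 normalized reads in the cabut RNAi-labelled libraries and 402 ± 34.6 in the controls (SD, n = 8 and 4), a log2 fold change of 0.51 ± 0.08 (limma adjusted p 1.91e-04). Cpr, the reductase of all microsomal P450s, had 144 ± 23.1 in the cabut RNAi-labelled libraries and 115 ± 13.6 in the controls (log2 0.32 ± 0.10, limma adjusted p 0.0428). The mitochondrial ferredoxin gene Fdx2 had 42.9 ± 7.89 in the cabut RNAi-labelled libraries and 64.2 ± 11.9 in the controls (log2 -0.57 ± 0.13, limma adjusted p 0.00527). With edgeR, 1 redox partner was higher and 1 lower.

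Among 10 regulators, which include cnc, its partner maf-S, its inhibitor Keap1 and the xenobiotic receptor Hr96, 7 were tested and 0 were called by limma, edgeR or DESeq2. By limma 1 of them was at an unadjusted p under 0.05, and the list median was -0.02. The largest value was that of kni, 0.99 ± 0.40 (limma adjusted p 0.109). Of 8 genes of haem synthesis and breakdown, such as Alas, the first enzyme of the pathway, and the haem oxygenase Ho, 0 were called by limma, edgeR or DESeq2, and 0 reached an unadjusted p under 0.05 by limma. Their median was -0.08. Of 6 P450 genes of ecdysone synthesis that have other symbols, phm was not analysed here. Among the other 5 only spo was tested, at means of 11.97 normalized reads under the cabut RNAi label and 11.96 in the controls, and dib had no read in any library. Neither redox partners, regulators, haem genes nor spo were called for sucrose, at 0 by limma, edgeR and DESeq2, with 3, 1, 0 and 0 of them at an unadjusted p under 0.05 by limma.

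Markers of other cell types also differed between labels. Of all tested genes, 6.78 percent were higher and 8.71 percent lower under the cabut RNAi label. Of 7 tested fat body genes, Lsp2 and Lsd-1 were higher, and Yp1, Yp2 and Yp3 lower. The summed list, most of it those 3 lower genes, ran from 26435 to 60152 normalized reads in the cabut RNAi-labelled libraries and from 53869 to 76012 in the controls. The larval gene Fbp1 had no read. Of 6 glial genes 3 were higher and 0 lower, with sums of 1851 to 2280 in the cabut RNAi-labelled libraries and 1785 to 1889 in the controls. Of 5 muscle genes 3 were higher, of 3 tested neuronal genes 2 were lower, of 9 photoreceptor genes 2 were higher and 2 lower, and of 3 tested hemocyte genes 1 was higher. The tested oenocyte gene spidey and the tested gut and tubule gene salt had log2 fold changes of 0.07 and -0.12, with limma adjusted p of 0.757 and 0.653. The part of these shifts in the P450 differences was not tested.

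The second comparison asked which P450 genes differed with sucrose, over both labels and all 3 concentrations against none. Of 45, 2 were higher with sucrose, against 0.672 percent of all genes, and 4 were lower, against 1.48 percent. The higher genes were Cyp4d21 and Cyp313a1 of the CYP4 clan, and the lower ones were Cyp6v1, Cyp6a8 and Cyp28d1 of the CYP3 clan and Cyp4e2 of the CYP4 clan. The median log2 fold change of the 45 was -0.17, against 0.01 over all genes. Of the cell type lists only fat body had genes called for sucrose by limma or edgeR, 2 higher and 0 lower of 7 by each, with 5 higher at an unadjusted p under 0.05, while DESeq2 also called 1 muscle gene higher. The called fat body genes were fit, at 2.31 (limma adjusted p 6.59e-05), and the lipid droplet gene Lsd-1, at 0.88 (0.00173), and their part in the P450 values was not tested. Only Cyp4e2 kept its call whichever library was left out, and without the second cabut RNAi library at 0 percent the calls fell to 3. Leaving out the 100 percent control gave 8, 3 higher and 5 lower, against 2.38 percent of all genes. The additional calls were Cyp4g1, at 2.28 (adjusted p 0.0168) against 2.88 (0.0532) with that library, and Cyp6a2, at -0.47 (0.0397) against -0.44 (0.0584). Cyp4g1 reached the mean of 10 only through the library left out, and the other 11 held 94 reads of it. Its call in that fit is thus one of a gene below the limit.

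Cyp4e2 had 348 and 352 normalized reads in the cabut RNAi-labelled libraries at 0 percent sucrose, 182 and 189 at 25 percent, 167 and 200 at 50 percent and 176 and 160 at 100 percent. The controls from 0 to 100 percent had 257, 147, 185 and 177. Under both labels the level without sucrose was above every level with sucrose, and the 3 concentrations were much alike. The log2 fold change for sucrose was -0.85 ± 0.11, with a limma adjusted p of 7.40e-05.

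Cyp6v1 had 33.8 and 27.8 normalized reads in the cabut RNAi-labelled libraries at 0 percent sucrose, 15.0 and 16.9 at 25 percent, 15.4 and 14.8 at 50 percent and 14.9 and 11.9 at 100 percent. The controls from 0 to 100 percent had 44.8, 21.0, 26.0 and 15.7. The libraries without sucrose were again the highest under each label. Its fitted difference on the log2 scale was -1.04 ± 0.19 (limma adjusted p 0.00341), with an adjusted p of 0.0505 without the first cabut RNAi library at 0 percent.

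Cyp28d1, a gene linked to nicotine tolerance in flies, had 230 and 266 normalized reads in the cabut RNAi-labelled libraries at 0 percent sucrose, 172 and 171 at 25 percent, 126 and 135 at 50 percent and 82.3 and 126 at 100 percent. The controls from 0 to 100 percent had 196, 190, 180 and 161. The highest values were those without sucrose under both labels, with a small range among the controls. Its log2 fold change was -0.65 ± 0.15 (limma adjusted p 0.0178), and without the second cabut RNAi library at 0 percent it was -0.50 with an adjusted p of 0.190. The annotated spans of Cyp28d1 and CG7742 overlap, and CG7742 had a mean of 0 normalized reads under the cabut RNAi label and 0.31 in the controls.

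Cyp6a8 had 242 and 223 normalized reads in the cabut RNAi-labelled libraries at 0 percent sucrose, 79.4 and 99.5 at 25 percent, 77.0 and 98.7 at 50 percent and 84.1 and 91.4 at 100 percent. The controls were level, at 16.6, 19.3, 18.6 and 17.9 from 0 to 100 percent. The pooled log2 fold change was -0.88 ± 0.21 (limma adjusted p 0.0276), and -0.64 with an adjusted p of 0.338 without the first cabut RNAi library at 0 percent.

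Cyp4d21, a gene of the CYP4 clan known from male courtship, had 24.0 and 12.9 normalized reads in the cabut RNAi-labelled libraries at 0 percent sucrose, 31.9 and 22.5 at 25 percent, 38.0 and 23.7 at 50 percent and 43.8 and 39.1 at 100 percent. The controls from 0 to 100 percent had 11.5, 42.0, 24.8 and 33.6. Replicates were wide apart, and 1 library without sucrose lay above 2 with sucrose under the same label. Fitted over all concentrations, the log2 fold change was 1.03 ± 0.23 (limma adjusted p 0.0164), and 0.83 with an adjusted p of 0.214 without the control at 0 percent.

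Cyp313a1 had 76.4 and 90.2 normalized reads in the cabut RNAi-labelled libraries at 0 percent sucrose, 123 and 101 at 25 percent, 120 and 91.8 at 50 percent and 157 and 133 at 100 percent. The controls from 0 to 100 percent had 80.7, 143, 156 and 170. All libraries with sucrose lay above those without it under each label, by a small margin at 50 percent. The fitted log2 fold change was 0.66 ± 0.13 (limma adjusted p 0.00536), and 0.52 with an adjusted p of 0.106 without the control at 0 percent. The annotated spans of Cyp313a1 and Pde6 overlap, so their reads could not be told apart without strand. Pde6 had a mean of 32.7 normalized reads under the cabut RNAi label and 32.5 in the controls.

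**Figure D5:**
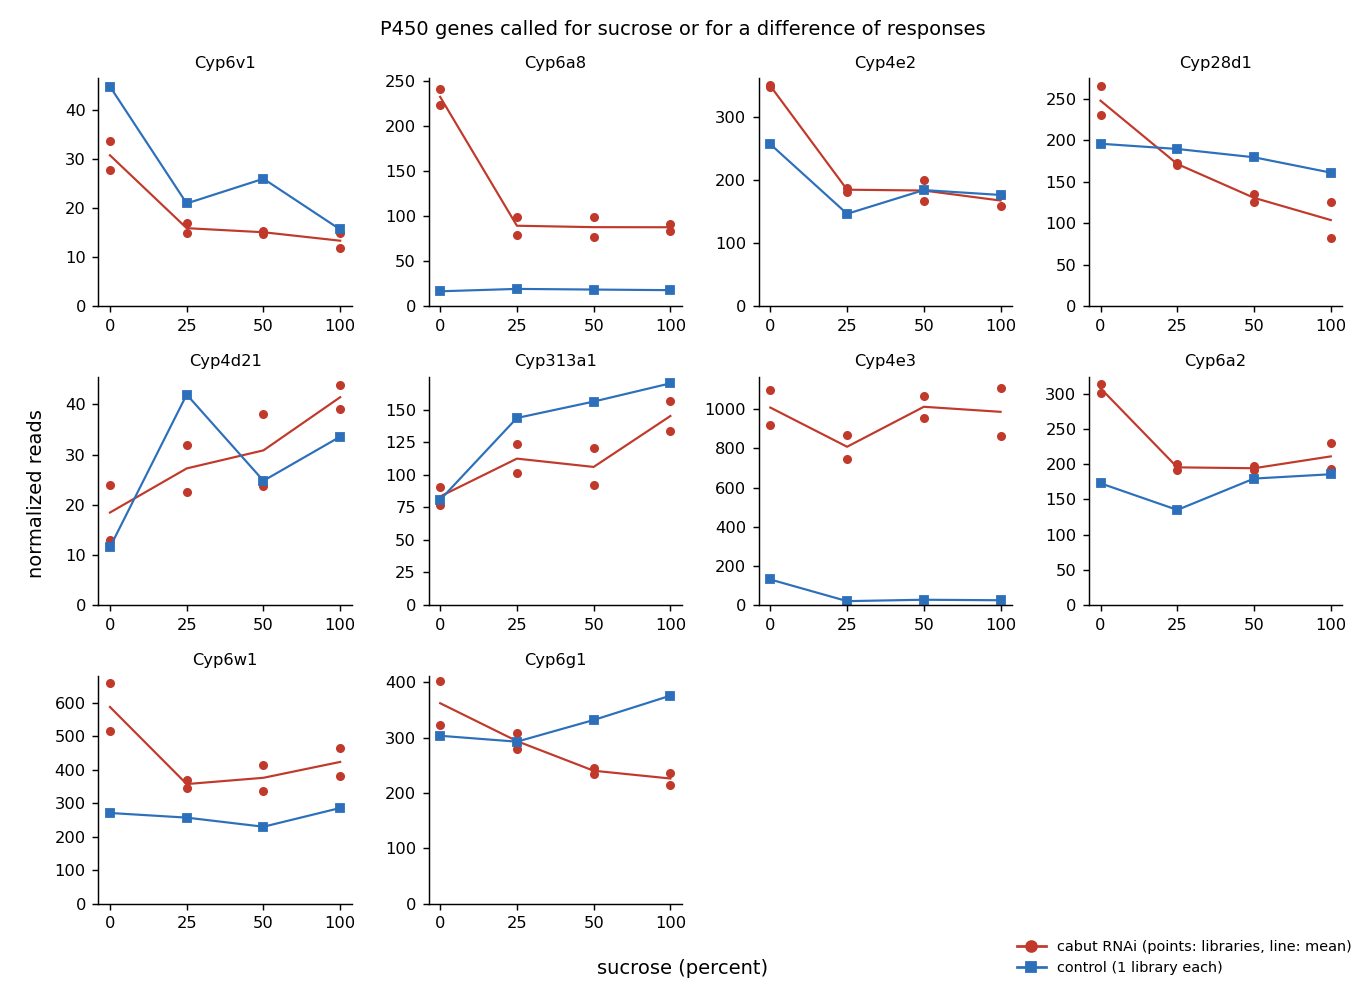
Normalized reads (y axis, linear, from 0) against sucrose concentration in percent (x axis, concentrations evenly spaced) for the 10 P450 genes called for sucrose, for sucrose within cabut RNAi or for the difference of responses. Red points are cabut RNAi libraries with their mean as a line, and blue squares are the single control libraries. Cyp6a8 under cabut RNAi has 242 and 223 at 0 percent and no value above 99.5 with sucrose.

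Within the 8 cabut RNAi-labelled libraries, 7 of 45 P450 genes were lower with sucrose, against 1.37 percent of all genes, and 0 were higher by limma, against 0.595 percent. By limma 4 were higher at an unadjusted p under 0.05, and edgeR and DESeq2 each called 0 higher. The lower genes were Cyp6a8, Cyp6v1, Cyp4e2, Cyp28d1, Cyp6a2, Cyp6w1 and Cyp6g1, and 6 of them belong to the CYP3 clan. The log2 fold changes were -1.39 ± 0.14 for Cyp6a8 (limma adjusted p 1.56e-04) and -0.97 ± 0.10 for Cyp4e2 (3.31e-04), and these 2 calls held whichever library was left out. The other 5 lay between -1.01 and -0.51. Of 8 leave-out fits, the call was lost in all 8 for Cyp6v1, where its adjusted p reached 0.549, in 4 for Cyp6g1, in 3 for Cyp6w1 and in 2 each for Cyp28d1 and Cyp6a2. There were 3 calls without either library at 0 percent sucrose and 4 without the second at 50 percent.

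Cyp6a2 had 314.5 and 301.1 normalized reads in the cabut RNAi-labelled libraries at 0 percent sucrose and between 191 and 230 in the 6 with sucrose. Cyp6w1 had 659 and 517 at 0 percent and between 338 and 465 in the 6 with sucrose. Cyp6g1, whose overexpression gives DDT resistance, had 323 and 402 at 0 percent and between 215.5 and 308.8 in the 6 with sucrose. In all 3 genes both libraries without sucrose lay above all 6 with it. The log2 fold changes were -0.62 ± 0.10, -0.60 ± 0.12 and -0.51 ± 0.11, with limma adjusted p of 0.00609, 0.0243 and 0.0286. In the 4 controls the fitted responses of these genes were -0.07, -0.08 and 0.13, but the differences between labels did not pass (limma adjusted p 0.327, 0.426 and 0.287). Fat body sums, most of them Yp1, Yp2 and Yp3, moved with sucrose in the same libraries. They were 35671 to 60152 normalized reads in the 6 with sucrose and 26435 and 28062 in the 2 without it. Of 7 fat body genes, 4 were called higher by limma, against 0.595 percent of all genes. Not called were Yp1 at 0.69 (limma adjusted p 0.0506), apolpp at 0.16 (0.627) and Lsp2 at -0.09 (0.970). Glial sums were 2030 to 2280 in the 6 with sucrose and 1851 and 1870 in the 2 without it, with 0 of 6 genes called by limma, edgeR or DESeq2 and 1 at an unadjusted p under 0.05. Muscle sums overlapped, at 1079 to 1672 with sucrose and 1035 and 1120 without it, with 0 of 5 genes called by these tools and 4 higher at an unadjusted limma p under 0.05. The part of these markers in the P450 values was not tested.

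The difference of sucrose responses between the labels was called for 2 of 45 genes, against 0.229 percent of all genes. For Cyp4e3 the fitted response was -0.11 under cabut RNAi and -2.41 in the controls, a difference of 2.29 ± 0.21 (limma adjusted p 5.87e-04). The control side of that difference rests on 1 library, with 131 normalized reads at 0 percent sucrose, against 20.1, 27.3 and 24.6 with sucrose, and the call could not be tested without it. The cabut RNAi-labelled libraries had 919 and 1098 at 0 percent, 746 and 871 at 25 percent, 1069 and 956 at 50 percent and 1109 and 864 at 100 percent, in no order by concentration. For Cyp6a8 the response was -1.39 under cabut RNAi and 0.15 in the controls, a difference of -1.54 ± 0.27 (limma adjusted p 0.0423). In 7 of 11 leave-out fits it missed the threshold, its adjusted p reaching 0.247, and it was also lost with edgeR (adjusted p 0.253), with DESeq2 and with limma without trend (0.177). The call count was then 1, that of Cyp4e3, as it also was without the control at 100 percent sucrose.

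No tested P450 gene had a graded response from 25 to 100 percent that passed the test. The slope per doubling of concentration was called by limma for 0 of 45 members, against 0.0 percent of all genes. At an unadjusted p under 0.05 there were 2 members by limma, and edgeR and DESeq2 called 0.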

How the data were processed

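The table holds 21081 transcript rows with 1 column for each of the 12 libraries. The authors deposited a normalized signal per library, and how it was counted and normalized, and with what use of strand, is not given in the sources used here. RNA was fragmented before poly(A) selection, per the labels' protocols, and the submitters' processing notes name build dm3, TopHat and Bowtie. Dividing each library by its smallest step gave whole reads for 100 percent of values, within a tolerance of 0.01. Of 14009 CG numbers, the RefSeq gene table gave a symbol for 13536. Of 87 Cyp symbols in that table, 4 had no row.

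Tests used limma 3.58.1 in R 4.3.3 with an intensity trend, on log2(value + 1), and Benjamini-Hochberg adjustment over all 6552 genes with a mean of 10 or more, threshold 0.05. This scale understates changes of low genes. Labels were compared with concentration as a factor, and sucrose with label as a term. The trend used the 9 libraries with sucrose. The difference of responses used 8 group means, the spread of single control libraries being taken as that of the other groups. The tests were tried on simulated data. Alternatives were other pseudocounts, filters and scalings, limma without trend or robust, leaving out each library, the replicate block, no concentration term, summed transcript rows, and edgeR 4.0.16 and DESeq2 1.42.0 on recovered reads.

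The members, gene lists and tests were chosen with earlier results of these data known. Named with values were the members called in any comparison, tested members of a cluster with a call between labels, and the tested member with the highest mean of each clan. For up to 8 higher and 6 lower genes between labels, and for Cyp309a2 as neighbour of Cyp309a1, the text gives every control and the lowest, median and highest of the 8 cabut RNAi-labelled libraries. Genes called for sucrose over both labels or for the difference have the values of every library. Replicate numbers of the cabut RNAi label were not used to pair libraries across concentrations in the main tests.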

Additional observations from a re-analysis of the deposited data

Results flagged for a closer look

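Of 54 groups of libraries tested on the log2(value + 1) scale for a value far from the rest, 3 held one, and chance gives about 1 in 20, or 2.7 of 54. The Cyp4g1 value of the control at 100 percent sucrose was not among them, since its gap was 0.663 of the range on that scale, under the limit of 0.829, and 0.985 on the scale of normalized reads. Cyp4e3 had 131 normalized reads in the control library at 0 percent sucrose, against 20.1 to 27.3 in the other 3 controls. Cyp6d2 had 1.03 in the first cabut RNAi-labelled library at 50 percent sucrose, against 5.58 to 9.77 in the other 7. That value is 1 read, and 3 reads are 3.08 normalized reads in that library. Cyp9c1 had 19.3 in the control library at 25 percent sucrose, against 32.0 to 33.6 in the other 3. The sucrose response differed between labels for Cyp4e3, by 2.29 on the log2 scale, and for Cyp6a8, by -1.54, each by limma's test of the difference itself. The first rests on the same control library at 0 percent sucrose. The second was lost in 7 of 11 leave-out fits, with limma without trend (adjusted p 0.177), with edgeR (0.253) and with DESeq2.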

How the results depend on the processing

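Between labels, every alternative gave 7 to 9 higher P450 genes and all but 1 gave 7 to 13 lower ones; with a mean of 50 or more there were 2 lower, since fewer genes are then tested. Of 18 calls, 14 held in every alternative that tested them, and the exceptions were Cyp4g1, Cyp9h1, Cyp309a2 and Cyp6a2. The calls for sucrose were 6, with 9 by edgeR, 8 by DESeq2 and 2 with limma without trend; leaving out a library gave 3 to 8. Within the cabut RNAi label there were 7, and 3 both with no filter and without trend; leaving out a library gave 3 to 6. The difference of responses had 2 calls, and 1 without trend, with edgeR and with DESeq2; leaving out a library gave 1 to 2, and it could not be fitted without the control at 0 percent. The share of all genes called moved as well. Without the shallowest control library it went from 15.5 to 11.0 percent between labels. The share of P450 genes went from 40.0 to 35.6 percent. For sucrose the share went from 2.15 to 2.38 percent of all genes and from 13.3 to 17.8 percent of P450 genes. Under the other alternatives the share of all genes is not given, so whether P450 counts moved apart from it was not tested. The cause of the shifts in these counts was not tested.

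Replicate numbers were checked on the cabut RNAi label, where deviations of like-numbered libraries correlated at -0.112 to 0.143. These correlations are weak, and whether like-numbered libraries share an origin cannot be told from them. With the replicate block, calls were 9 higher and 9 lower between labels, 7 for sucrose, 7 within the cabut RNAi label and 2 for the difference. For single genes, only those called in the main fit were followed, and 72 of their results in the alternatives no longer passed the threshold. Depth limits the lower genes, since 3 reads are 6.71 normalized reads in the control at 100 percent sucrose and 1.498 in the deepest library.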

Other observations

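The 36 P450 genes below a mean of 10 held few reads. With no filter on low values, 4 of the 31 with reads (12.9 percent) passed the limma threshold as lower under the cabut RNAi label, against 1.53 percent of all genes with reads below that mean, and 0 passed as higher, against 1.25 percent. Cyp6g2, a neighbour of Cyp6g1 on 2R that is linked to insecticide resistance and juvenile hormone synthesis, had 2 reads in the 8 cabut RNAi-labelled libraries and 23 in the 4 controls, and its log2 fold change was -2.76 (adjusted p 4.07e-05). Cyp304a1 of the CYP2 clan had 16 reads in the 8 cabut RNAi-labelled libraries and 32 in the 4 controls (-2.47, adjusted p 9.07e-04). Cyp4d1 had 5.04 ± 2.67 normalized reads in the cabut RNAi-labelled libraries and 18.5 ± 0.899 in the controls (SD, n = 8 and 4; -1.85, adjusted p 0.00374), and Cyp4e1, next to Cyp4e2, had 6.27 ± 1.45 in the cabut RNAi-labelled libraries and 14.9 ± 7.03 in the controls (-1.05, adjusted p 0.0384). For the first 3 of these the labels did not overlap, which was not counted over all genes below that mean. Reads totalled 10259479 in the 8 cabut RNAi-labelled libraries and 3585980 in the 4 controls.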
